A study of Mus musculus with 22 samples.

Results

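Jumonji-class histone demethylases were followed through the reprogramming of mouse fibroblasts. The set is 10 genes chosen by symbol as Jumonji-class demethylases, out of the 24130 genes of each library: Kdm2a, Kdm2b, Kdm3a, Kdm3b, Kdm4a, Kdm4b, Kdm4c, Kdm5a, Kdm5b and Kdm6b. Other Jumonji-class demethylases, such as Kdm6a and Phf8, were kept in a separate list. All 10 members were found and all 10 passed the filter on low counts in every model. They were described over all arms and days, with most attention to OSK_minus_vc, the arm whose medium lacked vitamin C.

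RNA sequencing of total RNA (TruSeq libraries) covered 22 samples, of which 20 were time-course libraries in 6 arms. All 20 came from passage 2 embryonic fibroblasts carrying the OG2 transgene, on a mixed background of 129SVJ, C57B6 and CBA strains, and day 0 followed 2 days of transfection. OvSvK cells received Klf4 with Oct4-vp16 and Sox2-vp16, the fusions of both other factors to the viral activation domain VP16, and were sampled on days 0, 1, 2, 3 and 4. OSK_minus_vc, OSK_minus_bFGF and OSK_minus_GSK3i cells received Oct4, Sox2 and Klf4 in medium without vitamin C, without bFGF, a fibroblast growth factor, or without the GSK3 inhibitors, which the series names as CHIR-99021 and LiCl. Each omission was sampled on days 3 and 7. OSK cells received the same factors with nothing omitted, so far as the labels say, and were sampled on days 0, 1, 3, 5 and 7, and GFP cells, the control, on days 1, 3, 5 and 7. OG2 embryonic stem cells (mESC) and fibroblasts (MEF) were the 2 reference samples, and both are labelled as a re-analysis. Every arm and day was 1 library, so the errors below describe how a difference varied between days, or how values departed from a line over days, and not the spread between replicates.

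Jumonji C proteins remove methyl groups from histone lysines with iron(II), oxygen and 2-oxoglutarate, and vitamin C keeps that iron in its reduced state, and RNA sequencing measures their transcripts and not this activity. Kdm3a and Kdm3b act on methylated H3K9, Kdm4a, Kdm4b and Kdm4c on methylated H3K9 and H3K36, Kdm2a and Kdm2b on methylated H3K36, Kdm5a and Kdm5b on methylated H3K4 and Kdm6b on methylated H3K27. In fibroblast reprogramming H3K9 methylation is known as a barrier, and Kdm2b is known to work together with vitamin C.

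Library totals ran from 7872277 to 20720718 expected counts, which put the limit of 3 counts at 0.147 to 0.399 CPM (expected counts scaled to library size with TMM factors). Beside arm and day, a pair of properties divided the libraries. The pseudogene Rpsa-ps10 took 3.32% to 7.78% of the counts that it shares with its parent gene in 8 libraries, OSK on days 1 to 7 and GFP, and 0.125% to 0.478% in the other 12, which are called set 1 and set 2 below. Comparisons of the omissions with OSK, of OvSvK with OSK on days 1 and 3, and of OvSvK with GFP therefore run across both sets, as does the line over days in OSK, whose day 0 is in set 2 and whose later days are in set 1. Genes of low GC content, the lowest of 5 equal groups of genes by exonic GC (under 45.3%), also moved together. Their mean deviation from the average of all libraries was -1.68 on the log2 scale in OSK day 0 and -1.11 in GFP day 1, and lay between -0.41 and 0.58 in the other 18. Kdm4c (43.3% GC), Kdm5a (43.8%) and Kdm3a (45.2%) belong to that group, and Kdm6b (56.6%) and Kdm4b (58.1%) to the group of highest GC (over 55.9%).

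RefSeq promoters on GRCm38.p6 were available here for Kdm2b, Kdm3a, Kdm4a, Kdm4c and Kdm5b, and windows of 3 of these genes, Kdm3a, Kdm4c and Kdm2b, are printed. Each line gives the 250 bases before a start, 5′ to 3′ on the gene's strand. Capitals mark the letters ACGTG or GCGTG on either strand, the core that hypoxia-inducible factors bind and that is also part of the E-box CACGTG, and Kdm3a is a known hypoxia-induced gene. Matches that overlap were counted as 1. The Kdm3a window (chr6:71632918-71633167, minus strand) reaches 73 bases past the start given in GENCODE M21. The Kdm4c window (chr4:74251629-74251878, plus strand) belongs to a start 9382 bases inside the gene. Kdm2b has an upstream start (chr5:122989100-122989349, minus strand) and an internal one (chr5:122900368-122900617, minus strand), of which the internal start is known to give a protein without the Jumonji C domain.
Kdm3a: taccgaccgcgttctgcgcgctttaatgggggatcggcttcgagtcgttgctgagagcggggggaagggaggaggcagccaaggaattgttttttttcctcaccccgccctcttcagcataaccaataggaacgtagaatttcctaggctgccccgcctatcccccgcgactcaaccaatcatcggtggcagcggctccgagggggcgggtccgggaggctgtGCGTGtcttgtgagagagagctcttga
Kdm4c: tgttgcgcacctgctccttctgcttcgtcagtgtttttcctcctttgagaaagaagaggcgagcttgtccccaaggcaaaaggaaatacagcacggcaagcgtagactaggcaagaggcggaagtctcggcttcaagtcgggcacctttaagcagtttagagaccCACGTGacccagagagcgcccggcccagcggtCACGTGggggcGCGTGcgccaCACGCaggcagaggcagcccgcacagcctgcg
Kdm2b, upstream start: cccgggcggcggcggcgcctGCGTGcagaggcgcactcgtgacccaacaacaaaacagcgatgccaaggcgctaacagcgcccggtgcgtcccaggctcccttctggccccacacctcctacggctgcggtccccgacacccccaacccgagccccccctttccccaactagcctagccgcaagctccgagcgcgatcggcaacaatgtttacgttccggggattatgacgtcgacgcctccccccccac
Kdm2b, internal start: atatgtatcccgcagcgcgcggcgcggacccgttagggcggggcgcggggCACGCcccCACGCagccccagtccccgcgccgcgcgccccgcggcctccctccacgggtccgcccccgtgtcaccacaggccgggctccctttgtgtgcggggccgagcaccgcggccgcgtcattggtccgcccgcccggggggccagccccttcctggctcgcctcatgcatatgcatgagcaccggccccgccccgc
The windows printed were chosen with their matches known, and RefSeq gives others for these genes. The Kdm4c window at the annotated start (chr4:74242247-74242496, plus strand) held 0 matches and 0 CG dinucleotides. Both other Kdm3a windows, for starts 304 and 23851 bases inside the gene, held 0 matches. Of both other Kdm2b windows, the upstream one (chr5:122988508-122988757) held 1 match and the internal one (chr5:122900351-122900600), which overlaps the one printed, held 2. Of the genes not printed, the Kdm5b window (chr1:134559928-134560177) held 2 matches and the Kdm4a window (chr4:118180044-118180293) 0. The printed Kdm4c window held 4 such matches, 2 of them the full CACGTG, whereas 1.4% of all 32851 promoters held 4 or more. The printed Kdm3a window and the printed upstream Kdm2b window held 1 each and the printed internal Kdm2b window 2, and 38.6% of all promoters held at least 1 and 13.4% at least 2. In the printed windows CG dinucleotides numbered 20 in the Kdm3a window, 19 in the Kdm4c window, 27 in the upstream and 36 in the internal Kdm2b window, against a median of 6 over all promoters. The counts of Kdm2b below are sums over the gene and do not separate the 2 starts.

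The first comparison asked how the demethylases differed between cells given Oct4, Sox2 and Klf4 and cells given GFP on the same days, with all 8 libraries in set 1. Kdm3a, Kdm3b, Kdm4b and Kdm4c were higher in OSK, and no member was lower (edgeR quasi-likelihood test with Benjamini-Hochberg adjustment over 12680 genes, threshold 0.05). By the same rule 30.7% of all genes were called, 16.8% higher and 14% lower. The median log2 difference of the 10 members was 0.61, beside 0.05 over all genes tested. Markers of cell state moved with this comparison. Of 8 fibroblast markers 5 were lower in OSK and 0 higher (list median -2.93). On days 3 and 7 their sum was 9187 and 2594 CPM in OSK cells, against 26453 and 26149 CPM in GFP cells. The pluripotent cell markers summed to 88.7 and 893 CPM in OSK cells on those days, against 0.825 and 1.58 CPM in GFP cells. The 1 of 8 that could be tested, Tdh, was higher. Of 3 macrophage markers tested, Cd14 was lower. Their part in the members' differences was not tested.

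Kdm3a (chr6:71588972-71632990), an H3K9 demethylase of the germline and of hypoxia, differed most. It had 49.0, 119.8, 128.5 and 160.5 CPM in OSK cells on days 1, 3, 5 and 7, against 15.8, 62.1, 48.9 and 63.6 CPM in GFP cells. OSK was higher on each of the 4 days, and on days 3 to 7 every OSK library lay above every GFP library. The log2 difference was 1.32 (SE 0.16, adjusted p = 0.00452 by edgeR). Kdm3a is of low GC content, and the plot of OSK minus GFP also shows its difference with the GC trend removed. Kdm3b (chr18:34777047-34838660), its paralog, had 135.6, 188, 162.6 and 136.7 CPM in OSK cells on the same days, against 113.7, 108, 87.5 and 89.3 CPM in GFP cells. Its ranges did not overlap, and the log2 difference was 0.64 (SE 0.17, adjusted p = 0.0376). With the GC trend removed it was 0.54 (SE 0.17) and no longer passed (adjusted p = 0.0623). Exons of Kdm3b share 3468 bases with the opposite-strand gene Gm26538, which had a median of 3 counts.

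Among the Kdm4 genes, Kdm4b (chr17:56326062-56402870) had 43.8, 44.3, 40.7 and 35.2 CPM in OSK cells and 26.4, 21.8, 17.9 and 21.1 CPM in GFP cells on days 1, 3, 5 and 7. No OSK library overlapped a GFP library, and both arms were nearly level over these days. The log2 difference was 0.91 (SE 0.16, adjusted p = 0.012 by edgeR). Kdm4c (chr4:74242497-74405860) had 39.8, 74.4, 85.2 and 65.1 CPM in OSK cells, against 13.7, 40.0, 40.5 and 49.1 CPM in GFP cells. OSK was higher on every day, although OSK day 1 lay below 3 of the 4 GFP libraries. Its log2 difference was 0.97 (SE 0.21, adjusted p = 0.0223), and 0.68 (SE 0.18) with the GC trend removed. Whether Kdm3a, Kdm4b and Kdm4c still passed in OSK minus GFP with that trend removed is not reported here. Kdm4a (chr4:118136957-118180043) ran the other way in size, at 163, 162.8, 132.5 and 124 CPM in OSK cells and 183, 191, 139.9 and 139 CPM in GFP cells, and its log2 difference of -0.16 (SE 0.13) did not pass.

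Kdm2a, Kdm2b, Kdm5a, Kdm5b and Kdm6b did not pass in this comparison. Kdm5a (chr6:120364124-120444574) had 64.6, 126, 110.1 and 101.8 CPM in OSK cells and 24.5, 78.9, 71.3 and 96.2 CPM in GFP cells, with OSK higher on each day and a log2 difference of 0.69 (SE 0.23, adjusted p = 0.0727 by edgeR). Its exons share 251 bases with the opposite-strand gene Ccdc77, with a median of 187 counts, and without a stated strand these reads cannot be told apart. Kdm6b (chr11:69398508-69413675) had 47.6, 58.7, 43.6 and 24.5 CPM in OSK cells and 27.5, 36.7, 21.2 and 27.8 CPM in GFP cells. It was above GFP on days 1, 3 and 5 and below it on day 7 (log2 difference 0.58, SE 0.23, adjusted p = 0.111). The log2 differences of Kdm2a (0.16), Kdm2b (0.28) and Kdm5b (0.05) had 95% intervals of -0.25 to 0.58, -0.12 to 0.67 and -0.48 to 0.58. Day by day, 3 members were past 2-fold on day 1 (Kdm3a, Kdm4c and Kdm5a), beside 20.7% of all genes, 1 on day 3 (Kdm4b) beside 28.8%, 4 on day 5 (Kdm3a, Kdm4b, Kdm4c and Kdm6b) beside 32.4% and 1 on day 7 (Kdm3a) beside 42.2%, all higher in OSK. The 3 members past 2-fold on day 1 are those of low GC content. The mean deviation of low-GC genes on that day was -0.40 on the log2 scale in OSK and -1.11 in GFP. The part of GC content in these single-day ratios was not tested. Without day 3 or without day 5 the only member called was Kdm3a, with log2 differences of 1.44 and 1.30. Without day 7, Kdm3b was lost and Kdm5a (0.89) and Kdm6b (0.83) passed.

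**Figure D1:**
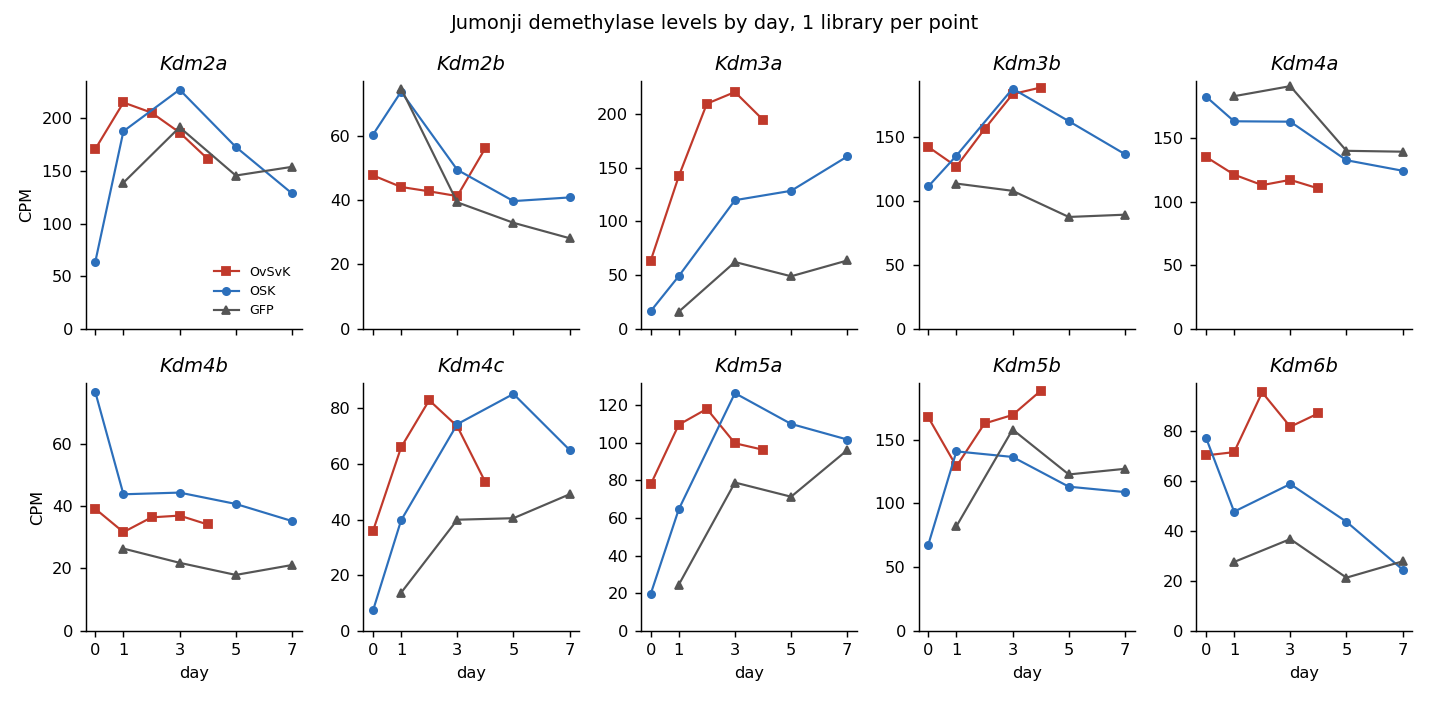
Level of each of the 10 demethylase genes in CPM (vertical axis, from 0, own scale per gene) by day after transfection (horizontal axis) in OvSvK (squares), OSK (circles) and GFP (triangles), with 1 library per point and no error bars. Kdm3a lies highest in OvSvK and lowest in GFP on days 1 and 3, and Kdm4b lies above GFP in OSK on every shared day.

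**Figure D2:**
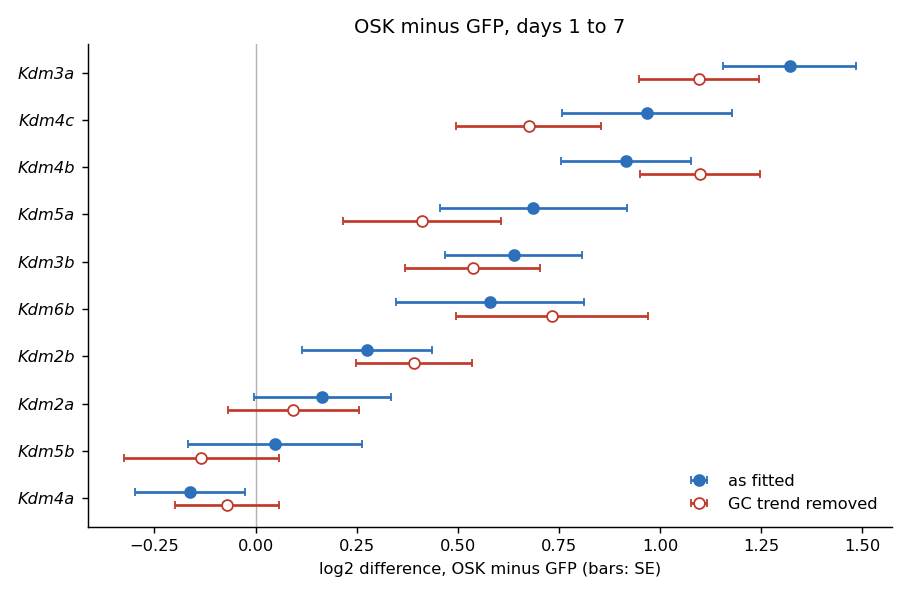
Log2 difference of OSK minus GFP over days 1, 3, 5 and 7 (horizontal axis) for each member, as fitted (filled) and with the GC trend removed from every library (open). Bars are the SE of the fit. Kdm3a is at 1.32 and Kdm4b at 0.91 as fitted, and Kdm4c is at 0.97 as fitted and 0.68 with the trend removed.

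From the levels in the plot by day, the change per day was fitted as a line for each arm (14 libraries, 13848 genes). In OSK, Kdm3a rose, and Kdm2b, Kdm4b and Kdm6b fell. Of all genes 45.5% were called in this fit, 21.5% up and 24% down, so 4 of 10 members is near the background. Markers of cell state moved with the same line, with 6 of 8 fibroblast markers and 3 of 5 macrophage markers tested falling and 7 of 7 pluripotent cell markers tested rising, and their part in the members' changes was not tested. Of the members not called, Kdm4c (0.32 per day), Kdm5a (0.25), Kdm2a (0.05), Kdm3b (0.03) and Kdm5b (0.02) had log2 changes above 0, and Kdm4a (-0.08) had one below 0. Kdm3a had 16.3, 49.0, 119.8, 128.5 and 160.5 CPM in OSK cells on days 0, 1, 3, 5 and 7, a rise at every step, with a log2 change of 0.40 per day (SE 0.11, adjusted p = 0.0172 by edgeR). Kdm6b, the H3K27 demethylase that is known to oppose Polycomb silencing, had 77.2, 47.6, 58.7, 43.6 and 24.5 CPM on the same days. It fell by 0.20 per day on the log2 scale (SE 0.06, adjusted p = 0.0175 by edgeR). Its value on day 0 is the only one from set 2, so day 0 and library set cannot be told apart for Kdm6b, and without OSK day 0 the log2 change of -0.18 per day (SE 0.08, adjusted p = 0.12) did not pass. It did not pass without OSK day 7 either (-0.13, adjusted p = 0.187).

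Kdm2b (chr5:122870665-122989823), an H3K36 demethylase that also brings a variant Polycomb complex to unmethylated CpG islands, had 60.3, 73.6, 49.4, 39.7 and 40.8 CPM in OSK cells on days 0, 1, 3, 5 and 7, and 74.6, 39.3, 32.9 and 28.1 CPM in GFP cells on days 1, 3, 5 and 7. Both arms were highest on day 1. The log2 change per day was -0.12 in OSK (SE 0.05, adjusted p = 0.0451 by edgeR) and -0.23 in GFP (SE 0.06, adjusted p = 0.0459), where Kdm2b was the 1 member called, beside 4.8% of all genes, 2.07% up and 2.73% down. The log2 changes per day of the other 9 in GFP ran from -0.08 (Kdm4a) to 0.27 (Kdm5a). The GFP call was lost when any of several single libraries, GFP day 1 among them, was left out. Exons of Kdm2b share 627 bases with Rnf34, with a median of 431.5 counts, and 199 with A930024E05Rik, with a median of 35 counts, both on the opposite strand. The sources used here do not state whether counting used strand, so reads from these bases cannot be told apart. Kdm4b fell by 0.13 per day (SE 0.05, adjusted p = 0.0335), with 76.6 CPM on day 0, while days 1 to 7 ranged from 35.2 to 44.3 CPM.

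OSK day 0 and the GC trend moved with these lines. Without OSK day 0 only Kdm2b passed (-0.15 per day), and with the GC trend removed only Kdm3a did (0.24 per day, SE 0.07, adjusted p = 0.0249 by edgeR), while the log2 change of Kdm4b was then 0.02. The part of that library in the other calls was not tested further. In OvSvK no member passed, beside 10.3% of all genes, 4.49% up and 5.81% down, with 0 members at an unadjusted p under 0.05 by edgeR, beside 25.3% of all genes, and 0 called by DESeq2, beside 17.2%. The members' log2 changes per day in OvSvK ran from -0.06 (Kdm4a) to 0.39 (Kdm3a). Kdm3a had 63.3, 142, 209.7, 221 and 194.7 CPM in OvSvK cells on days 0, 1, 2, 3 and 4 and Kdm3b 142, 127, 156, 184 and 189 CPM, and Kdm3a did most of its climbing by day 2. The differences between slopes, OSK minus GFP and OvSvK minus OSK, called no member. The first of these called 6.22% of all genes by edgeR, 2.85% higher and 3.38% lower, with 0 members at an unadjusted p under 0.05, beside 21.6% of all genes. The second called 0% of genes by edgeR, and 1681 genes (12.1%) and 1 member, Kdm6b (0.28 per day, SE 0.11), had an unadjusted p under 0.05. DESeq2 called 0 members in both, beside 12.9% of all genes in the first and 3.06% in the second. The members' differences per day ran from -0.16 (Kdm6b) to 0.15 (Kdm3a) in the first and from -0.19 (Kdm5a) to 0.28 (Kdm6b) in the second.

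The next comparison asked what the VP16 fusions changed, on the shared days 0, 1 and 3. No member passed in OvSvK minus OSK, and no gene did among 12910 (0%), although 2991 genes (23.2%) and 1 member, Kdm3a, had an unadjusted p under 0.05 by edgeR. DESeq2 called 1778 genes (13.8%) and the same member. Kdm3a had 63.3, 142 and 221 CPM in OvSvK cells on days 0, 1 and 3, against 16.3, 49.0 and 119.8 CPM in OSK cells. OvSvK was higher on all 3 days, with a log2 difference of 1.47 (SE 0.34, adjusted p = 0.0712 by edgeR), and 0.96 (SE 0.21, adjusted p = 0.0614) with the GC trend removed. For the other 9 members the log2 differences ran from -0.55 (Kdm4b) to 0.99 (Kdm4c), with Kdm5a at 0.81, Kdm5b at 0.51, Kdm2a at 0.45, Kdm6b at 0.32, Kdm3b at 0.09, Kdm4a at -0.43 and Kdm2b at -0.44. Without day 0 Kdm3a passed (1.21), and without day 3 Kdm3a (1.76), Kdm4c (1.51) and Kdm5a (1.39) did.

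Day 0 is the only one of these days on which both libraries belong to set 2. There 5 of 10 members differed at least 2-fold, beside 46.2% of all genes. Kdm4c was 4.92-fold, Kdm5a 3.98-fold, Kdm3a 3.88-fold, Kdm2a 2.68-fold and Kdm5b 2.47-fold higher in OvSvK cells (35.9, 77.8, 63.3, 171 and 167 CPM) than in OSK cells (7.30, 19.6, 16.3, 63.8 and 67.7 CPM). OSK day 0 is also the library with the lowest values of low-GC genes, and their part in these ratios was not tested. On day 1 only Kdm3a was past 2-fold (2.90), beside 23.5% of all genes, and on day 3 no member was, beside 21.8%. Against GFP, OvSvK cells were past 2-fold for 4 members on day 1, beside 42.2% of all genes, with Kdm3a at 8.98-fold, Kdm4c at 4.82-fold, Kdm5a at 4.48-fold and Kdm6b at 2.60-fold. On day 3 the members past 2-fold were Kdm3a (3.55) and Kdm6b (2.22), beside 39.9%. The mean deviation of low-GC genes was 0.55 on the log2 scale in OvSvK day 1 and -1.11 in GFP day 1, the 3 highest ratios on day 1 are those of the 3 members of low GC content, and Kdm6b is the member whose level separates the library sets. The part of GC content and of library set in these ratios was not tested. The ratio of 1 pair of libraries has no replicate check.

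Omission of vitamin C was compared with complete OSK medium on days 3 and 7. No member passed in OSK_minus_vc minus OSK, where 0.296% of 14191 genes did, 0.0423% higher and 0.254% lower. By edgeR 1 member had an unadjusted p under 0.05, beside 12.6% of all genes, and DESeq2 called the same member, beside 2.09% of all genes. That member was Kdm6b. It had 95.5 and 76.9 CPM in OSK_minus_vc cells on days 3 and 7, against 58.7 and 24.5 CPM in OSK cells, with a log2 difference of 1.14 (SE 0.26, adjusted p = 0.11 by edgeR and 0.0147 by DESeq2). Without OSK day 3 it passed, at 1.64. On day 7 it was 3.14-fold higher (95% counting interval 2.80 to 3.53), and it was the 1 member of 10 past 2-fold on that day, beside 9.55% of all genes, while on day 3 no member was, beside 4.86%.

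For the other 9 members the fitted log2 differences between OSK_minus_vc and OSK lay between -0.25 (Kdm2b) and 0.24 (Kdm4b). Kdm3a had 114.6 and 153 CPM in OSK_minus_vc cells on days 3 and 7, against 119.8 and 160.5 CPM in OSK cells, and its log2 difference of -0.07 had a 95% interval of -0.52 to 0.38. Kdm4c had 73.9 and 77.0 CPM in OSK_minus_vc cells and 74.4 and 65.1 CPM in OSK cells (0.11, 95% interval -0.33 to 0.56). Kdm2b is a member tied to vitamin C in earlier work on reprogramming. It had 35.9 and 39.4 CPM in OSK_minus_vc cells and 49.4 and 40.8 CPM in OSK cells (-0.25, 95% interval -0.72 to 0.21). Kdm3b, Kdm4a, Kdm5a, Kdm5b and Kdm2a gave 0.09, 0.04, 0.09, 0.15 and -0.02. These intervals leave room for changes in either direction, so equal levels were not shown.

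Kdm6b was above OSK in the other omissions too. It had 83.9 and 62.3 CPM in OSK_minus_bFGF cells and 103 and 79.6 CPM in OSK_minus_GSK3i cells on days 3 and 7, set against the same OSK libraries. The log2 differences from OSK were 0.88 without bFGF (SE 0.26, adjusted p = 0.0525 by edgeR) and 1.23 without GSK3 inhibitors (SE 0.26, adjusted p = 0.0103). The 3 comparisons share their OSK libraries and are not independent. They also share the step between library sets: Kdm6b ran from 62.3 to 103 CPM in all 12 libraries of set 2, with a median of 80.6, and from 21.2 to 58.7 CPM in the 8 of set 1, with a median of 32.2. The sets did not overlap for Kdm6b and overlapped for the other 9 members, and 0.641% of 11235 genes with a mean of at least 5 CPM had sets that did not overlap. This split was looked at after the values of Kdm6b were seen. OvSvK cells (70.1 to 95.3 CPM) and OSK cells on day 0 (77.2 CPM), which had no omission, lie in the same range as the omissions, so omission and library set cannot be told apart for Kdm6b. Kdm6b shares 286 exonic bases with the opposite-strand gene Kdm6bos, which had a median of 3.1 counts.

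**Figure D3:**
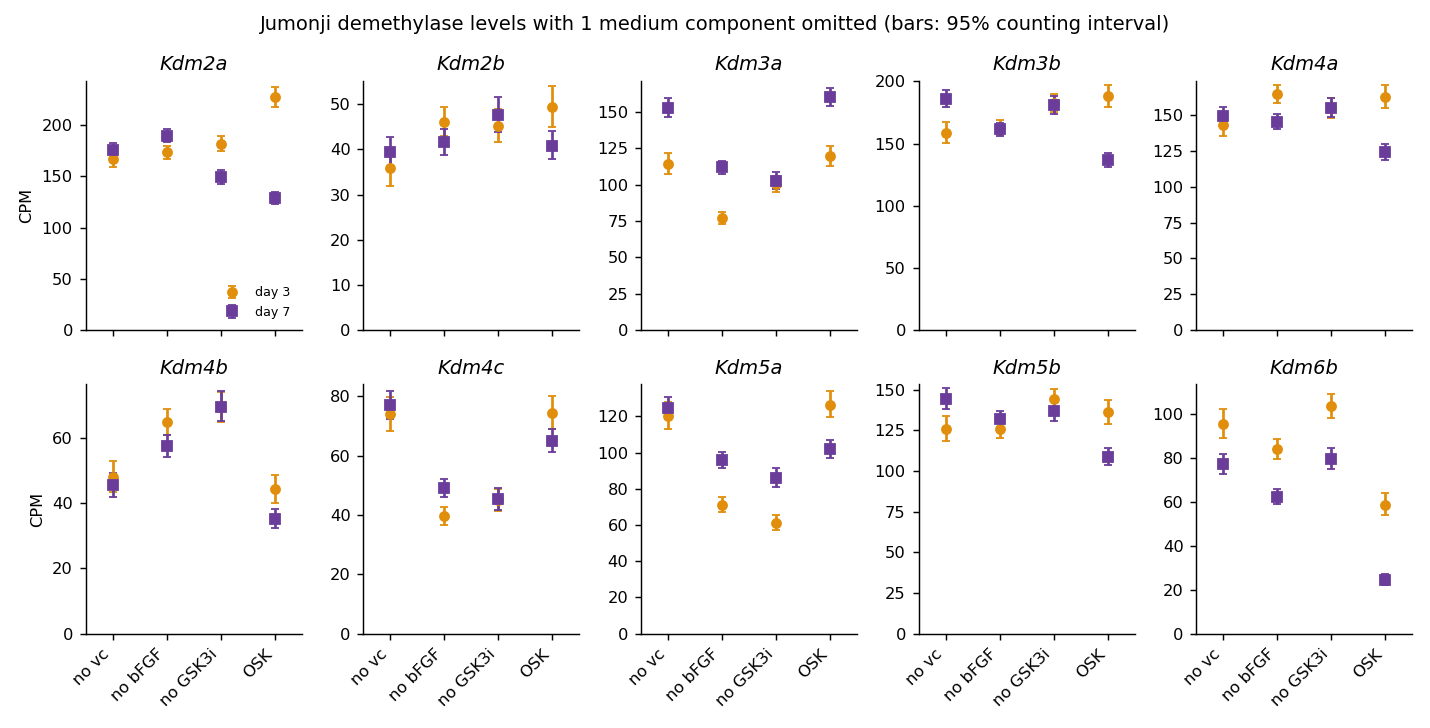
Level of each member in CPM (vertical axis, from 0, own scale per gene) in the libraries without vitamin C (no vc), without bFGF and without GSK3 inhibitors and in complete OSK medium, on day 3 (circles) and day 7 (squares). Bars are 95% Poisson intervals of the counts and cover counting error only. Kdm6b is higher in all 3 omissions than in OSK, and Kdm4c and Kdm5a are higher without vitamin C than without either other component. In complete OSK medium Kdm4c and Kdm5a are also higher than without either other component.

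Beside Kdm6b, the omission of GSK3 inhibitors called Kdm4b higher and Kdm4c lower than OSK, beside 23.3% of all genes, 9.97% higher and 13.3% lower. Kdm4b had 69.5 and 69.7 CPM in OSK_minus_GSK3i cells on days 3 and 7, against 44.3 and 35.2 CPM in OSK cells (log2 difference 0.82, SE 0.20, adjusted p = 0.0168 by edgeR). Kdm4c had 44.9 and 45.4 CPM in OSK_minus_GSK3i cells and 74.4 and 65.1 CPM in OSK cells (-0.62, SE 0.20, adjusted p = 0.0494). The log2 differences of the other 7 members ran from -0.64 (Kdm5a) to 0.21 (Kdm5b). In the same comparison 4 of 8 fibroblast markers were higher and 5 of 8 pluripotent cell markers lower without GSK3 inhibitors, and their part in the members' values was not tested. Without bFGF no member passed by edgeR, beside 12.5% of all genes, 4.71% higher and 7.77% lower. By edgeR 4 members had an unadjusted p under 0.05, beside 30.7% of all genes, and DESeq2 called 3, beside 15.8%. Without OSK day 3, edgeR called 3 members. The nearest were Kdm6b, Kdm4c (-0.68, adjusted p = 0.0536), Kdm4b (0.61, adjusted p = 0.0691) and Kdm3a (-0.59, adjusted p = 0.0815), and the other 6 ran from -0.49 (Kdm5a) to 0.10 (Kdm4a). Kdm6b was past 2-fold on day 7 in both omissions (2.55-fold without bFGF, beside 18.1% of all genes, and 3.25-fold without GSK3 inhibitors, beside 26.9%). On day 3 no member was without bFGF, beside 14.9%, and Kdm5a was lower without GSK3 inhibitors (a ratio of 0.484), beside 16.2%. With the GC trend removed, or without the day 7 library lacking GSK3 inhibitors, 0 members passed in the comparison of OSK_minus_GSK3i with OSK.

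The omissions were also compared with each other, which stays within set 2: OSK_minus_vc against the mean of OSK_minus_bFGF and OSK_minus_GSK3i, on days 3 and 7. Kdm4c, Kdm5a and Kdm3a were higher and Kdm4b was lower without vitamin C than in that mean, 4 of 10 members beside 23.4% of 13959 genes (15.5% higher and 7.91% lower). None of these 4 passed in OSK_minus_vc minus OSK, whereas Kdm4b and Kdm4c did in OSK_minus_GSK3i minus OSK. On days 3 and 7 OSK cells had 74.4 and 65.1 CPM of Kdm4c and 126 and 101.8 CPM of Kdm5a. They had 119.8 and 160.5 CPM of Kdm3a and 44.3 and 35.2 CPM of Kdm4b. Kdm4c had 73.9 and 77.0 CPM in OSK_minus_vc cells on days 3 and 7, against 39.5 and 49.0 CPM in OSK_minus_bFGF cells and 44.9 and 45.4 CPM in OSK_minus_GSK3i cells. Both libraries without vitamin C lay above all 4 others. The log2 difference was 0.76 (SE 0.14, adjusted p = 0.00155 by edgeR). Kdm5a, which removes methyl groups from H3K4, had 120.3 and 124.6 CPM in OSK_minus_vc cells, against 71.1 and 95.9 CPM in OSK_minus_bFGF cells and 61.2 and 86.2 CPM in OSK_minus_GSK3i cells (0.67, SE 0.14, adjusted p = 0.00412).

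Kdm3a had 114.6 and 153 CPM in OSK_minus_vc cells on days 3 and 7. OSK_minus_bFGF cells had 77.2 and 112 CPM and OSK_minus_GSK3i cells 100.3 and 102.8 CPM. Both Kdm3a values without vitamin C lay above these 4. Its log2 difference was 0.45 (SE 0.14, adjusted p = 0.0369 by edgeR). Kdm4b had 48.1 and 45.5 CPM in OSK_minus_vc cells, against 64.9 and 57.6 CPM in OSK_minus_bFGF cells and 69.5 and 69.7 CPM in OSK_minus_GSK3i cells, without overlap, and its log2 difference was -0.47 (SE 0.14, adjusted p = 0.0315). Kdm6b did not pass, at 0.09 (95% interval -0.20 to 0.38), nor did Kdm2b, at -0.25 (95% interval -0.58 to 0.08). The log2 differences of Kdm2a, Kdm3b, Kdm4a and Kdm5b lay between -0.08 and 0.01. No member was past 2-fold on a single day, beside 13.5% of all genes on day 3 and 8.67% on day 7 against OSK_minus_bFGF, and 13.5% and 18% against OSK_minus_GSK3i. Without OSK_minus_vc day 3 only Kdm4c passed. Kdm4c and Kdm5a passed without OSK_minus_vc day 7, without OSK_minus_bFGF day 3 and without OSK_minus_GSK3i day 7.

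These 4 members are the 3 of lowest and the 1 of highest GC content, as the plot against GC content shows. The mean deviation of low-GC genes was 0.38 and 0.49 on the log2 scale in OSK_minus_vc on days 3 and 7, against -0.40 and 0.16 in OSK_minus_bFGF and -0.41 and -0.21 in OSK_minus_GSK3i. With the GC trend removed no member passed (0 by edgeR). The log2 differences were then 0.19 for Kdm4c, 0.14 for Kdm5a, 0.10 for Kdm3a and -0.23 for Kdm4b. In the authors' deposited table of normalized values, where the deviation of low-GC genes spans -0.35 to 0.20 over the 20 libraries in place of -1.68 to 0.58, no member passed in limma, and Kdm4c and Kdm5a had log2 differences of -0.09 each.

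**Figure D4:**
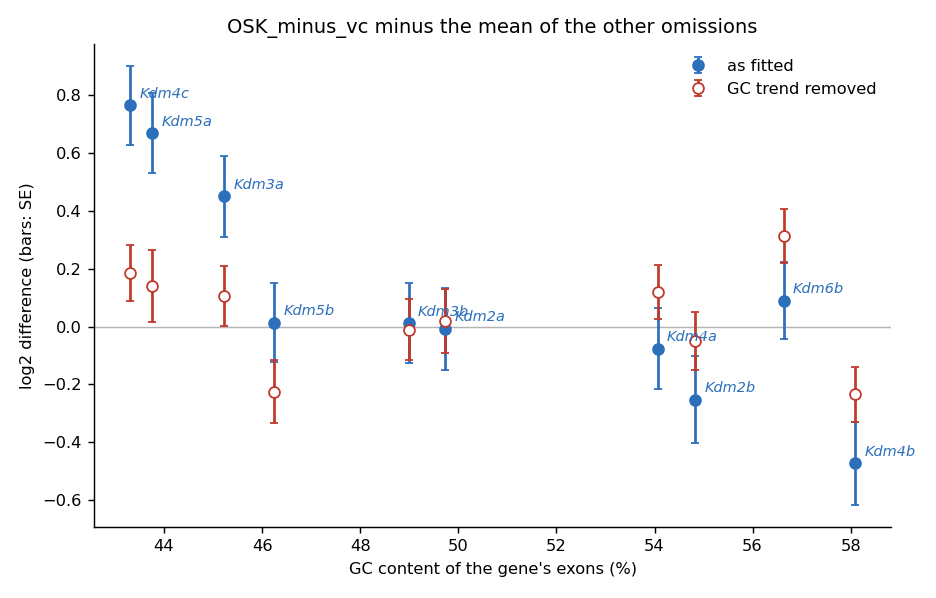
Log2 difference of OSK_minus_vc minus the mean of the other omissions (vertical axis) against the GC content of each member's exons in percent (horizontal axis), as fitted (filled, labelled) and with the GC trend removed (open). Bars are the SE of the fit. The filled points run from 0.76 for Kdm4c down to -0.47 for Kdm4b, and the open points lie between -0.23 and 0.31. The highest open point is that of a member not called as fitted.

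Markers of cell state moved with the same comparison. Without vitamin C, 5 of 8 fibroblast markers were lower and 0 higher than in the other omissions, and 5 of 8 pluripotent cell markers were higher and 0 lower. The pluripotent cell markers summed to 88.5 and 478 CPM in OSK_minus_vc cells on days 3 and 7, against 92.5 and 187.8 CPM in OSK_minus_bFGF cells, 107.7 and 203 CPM in OSK_minus_GSK3i cells, and 88.7 and 893 CPM in OSK cells. The fibroblast markers summed to 9081 and 3743 CPM in OSK_minus_vc cells, 17914 and 9199 CPM in OSK_minus_bFGF cells, 8609 and 6280 CPM in OSK_minus_GSK3i cells, and 9187 and 2594 CPM in OSK cells. On day 3, Nanog, Tdgf1 and Lin28a had 0 counts in OSK_minus_vc, Dppa5a, Tdgf1 and Lin28a in OSK_minus_bFGF, Dppa5a and Lin28a in OSK_minus_GSK3i and Lin28a in OSK. Lin28a was also at 0 in OSK_minus_GSK3i on day 7. Their part in the members' values was not tested. In these bulk samples fewer cells of a type and less RNA per cell cannot be told apart.

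Levels between members were compared per length, in TPM (transcripts scaled by gene length and library). Over the 20 libraries Kdm2a had the highest median, 78.7 TPM, followed by Kdm4a with 75.5, Kdm3a with 57.8, Kdm3b with 53.5, Kdm5b with 52.4, Kdm5a with 35.8, Kdm4c with 29.4, Kdm2b with 26.7, and Kdm4b and Kdm6b with 24.6 each. The ranges of neighbours in this order overlapped, and the order differed between arms. In OvSvK the median of Kdm3a (110.6 TPM) was above that of Kdm2a (100.6 TPM). Kdm4a was above Kdm2a in OSK_minus_GSK3i (88.4 and 84.5 TPM) and in GFP (73.3 and 60.0 TPM). Kdm4a varied least between libraries, 1.73-fold between the highest and lowest CPM, and Kdm3a most, 13.9-fold, from 15.8 CPM in GFP day 1 to 221 CPM in OvSvK day 3. Kdm4c spanned 11.7-fold and Kdm5a 6.47-fold, both with their lowest value in OSK day 0.

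In the reference samples the authors' normalized values were compared as 1 mESC against 1 MEF library with no test. These values share 1 scale over all columns and were deposited without counts. The H3K4 demethylase Kdm5b (chr1:134560171-134635285) had 8039 in mESC and 1944 in MEF, and Kdm3a had 3654 in mESC and 655 in MEF. Kdm3b had 2786 in mESC and 1282 in MEF, and Kdm2b had 1788 in mESC and 782 in MEF. The location that the authors' values give for Kdm3b did not lie within the gene as annotated in GENCODE M21. These 4 were at least 2-fold higher in mESC, and no member was 2-fold lower. The same values cover 12897 genes, of which 53.1% were at least 2-fold apart (on values with 1 added), 26.1% higher and 27.1% lower in mESC. Kdm2a (chr19:4314419-4398285) had 1167 in mESC and 2041 in MEF. At the course ends Kdm3a stood between both cell types in the same table, at 2760 in OvSvK day 4 and 1836 in OSK day 7. So did Kdm3b (2346 and 1572) and Kdm4c (765 and 804, against 1206 in mESC and 654 in MEF). Kdm5b stood between them in OvSvK day 4 (2240) and below both in OSK day 7 (1094). Kdm6b was at 1791 in OvSvK day 4 and 492 in OSK day 7, against 1866 in mESC and 1233 in MEF.

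**Figure D5:**
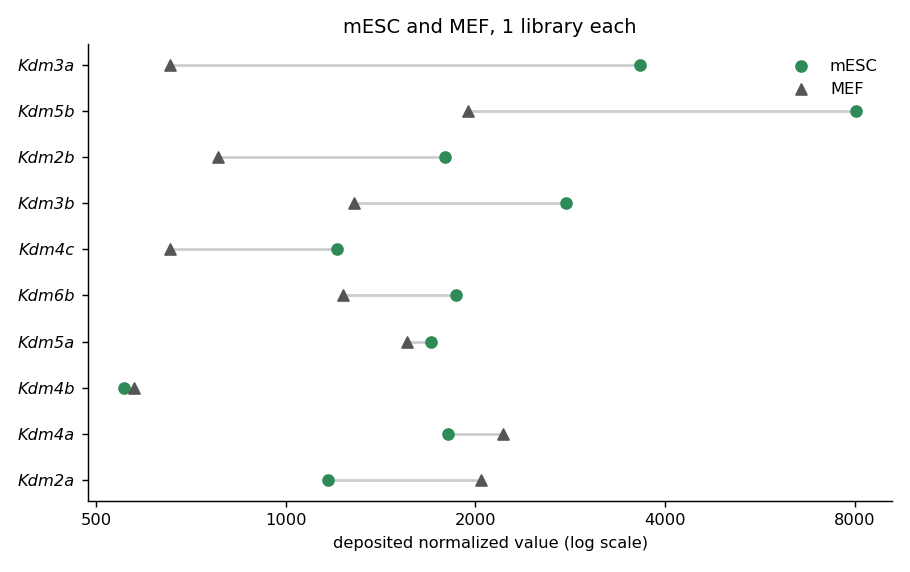
The authors' deposited normalized value (horizontal log axis, no unit) of each member in mESC (circles) and MEF (triangles), 1 library each, joined by a line and sorted by ratio. Kdm3a and Kdm5b show the widest gaps, and Kdm2a is the member furthest to the MEF side.

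The other proteins with a Jumonji C domain gave a frame for the members. Of 16 listed, 14 were tested in OSK minus GFP, and 3 of them were called, beside 30.7% of all genes. Jarid2, a catalytically inactive Polycomb partner, was higher (log2 difference 2.13, SE 0.25, adjusted p = 0.00392 by edgeR), as were the H3K27 demethylase Kdm6a (1.31, SE 0.21, adjusted p = 0.00884) and the H3K9 demethylase Phf8 (0.52, SE 0.15, adjusted p = 0.0498), and none was lower. Kdm6a, the X-linked relative of Kdm6b, had 57.1 and 73.2 CPM in OSK_minus_vc cells on days 3 and 7, against 20.7 and 39.4 CPM in OSK_minus_bFGF cells, 25.7 and 34.2 CPM in OSK_minus_GSK3i cells, and 53.9 and 60.8 CPM in OSK cells. In OSK_minus_vc minus the other omissions, Jmjd1c (1.55), Uty (1.70), Kdm7a (1.34), Kdm6a (1.15) and Kdm5d (0.93) were higher and Phf2 (-0.43) was lower, 6 of 15 tested, beside 23.4% of all genes (15.5% higher and 7.91% lower). The 5 that were higher all belong to the group of lowest GC content (38.1% to 44.8%), and Phf2 (57.1%) to the group of highest. Uty and Kdm5d lie on chromosome Y, and the part of the sex of the cells in their values was not tested. With the GC trend removed, Jmjd1c (0.95, SE 0.10, adjusted p = 0.005 by edgeR) and Kdm6a (0.75, SE 0.10, adjusted p = 0.00791) still passed. Uty (0.44, adjusted p = 0.224), Kdm7a (0.45, adjusted p = 0.0655), Kdm5d (0.17, adjusted p = 0.478) and Phf2 (-0.20, adjusted p = 0.182) then did not. In OSK_minus_vc minus OSK none of the 15 tested passed by edgeR, and their log2 differences ran from -0.34 (Riox2) to 0.78 (Hr). Kdm4d, a germline member of the Kdm4 family, had at most 0.377 CPM in any library and was not tested.

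The enzymes that write the marks, and the known partners and targets, were counted from short lists in OSK minus GFP, where 30.7% of all genes were called, 16.8% higher and 14% lower. Of 6 H3K9 methyltransferases, Suv39h2 (1.86, SE 0.46) and Ehmt1 (0.52, SE 0.15) were higher and none was lower, with a list median of 0.47. Of the 4 genes of the H3K27 methyltransferase complex, Ezh2 (1.99, SE 0.49), Suz12 (1.89, SE 0.39) and Ezh1 (0.88, SE 0.20) were higher and none was lower, with a list median of 1.38. Of 6 H3K4 methyltransferases Setd1a was lower (-0.58, SE 0.15, list median 0.21), and of 5 H3K36 methyltransferases none passed (list median -0.06). Of 8 partners of Kdm2b in its Polycomb complex, Usp7 (0.86, SE 0.15), Rnf2 (0.65, SE 0.14) and Bcor (0.51, SE 0.15) were higher and none was lower. Of the 2 amine oxidase demethylases, which do not need vitamin C, Kdm1a was higher (0.63, SE 0.17, adjusted p = 0.0377 by edgeR). Both genes of the Ink4-Arf locus, which Kdm2b is known to repress in fibroblasts, were lower in OSK, and Kdm2b itself did not pass.

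Of those 2 genes, Cdkn2b had 23.6, 15.8, 16.0 and 12.4 CPM in OSK cells on days 1, 3, 5 and 7, against 68.1, 149.6, 120.6 and 128.7 CPM in GFP cells. In OSK_minus_vc it had 22.8 and 15.1 CPM on days 3 and 7, and neither gene passed in OSK_minus_vc minus OSK. Of 10 hypoxia-response genes 8 were tested, of which 1, Pdk1, was higher in OSK than in GFP (1.35, SE 0.18) and 2, Vegfa (-2.26, SE 0.41) and Ndrg1 (-1.49, SE 0.39), were lower. With the GC trend removed, Phf8 (0.38), Ezh2 (1.73), Suz12 (1.45), Suv39h2 (1.53), Setd1a (-0.43), Usp7 (0.56), Rnf2 (0.33), Kdm1a (0.46) and Ndrg1 (-1.39) no longer passed in OSK minus GFP, with adjusted p from 0.0559 to 0.113 by edgeR. Jarid2 (2.10), Kdm6a (1.08), Ezh1 (0.78), Ehmt1 (0.53), Bcor (0.62), Pdk1 (1.23), Vegfa (-2.13), Cdkn2a (-1.65) and Cdkn2b (-2.65) still did.

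Members also differed in which genes they followed over the 20 libraries, by Pearson correlation of log2(CPM + 1) among genes with a mean of at least 5 CPM. These values are descriptions, since the libraries share arms, days, sets and the GC trend. Kdm4c and Kdm5a followed each other (r = 0.97, n = 20, and 0.94 without OSK day 0), and each also followed the mean deviation of low-GC genes (0.95 for both). Kdm3a was most like N4bp2 (0.97), Kdm6a (0.96) and Trim24 (0.96), and followed the low-GC deviation at 0.88. Among the genes most like Kdm6b were Hipk2 (0.96) and Spen (0.93), and its r with the low-GC deviation was 0.01. Kdm4b was most like Btbd2 (0.94), Pcif1 (0.94) and Skiv2l (0.93), Kdm4a like Ap3d1 (0.95), Kdm3b like Nav2 (0.94), Kdm2a like Cers6 (0.94) and Kdm2b like Mcm3ap (0.89). Some of these neighbours rest on OSK day 0. Without it (n = 19) the genes most like Kdm4b were Arhgef18 (0.96), Irf2 (0.95) and Mmp28 (0.94), and the nearest were Atrnl1 (0.90) for Kdm2a, Tubgcp2 (0.92) for Kdm2b and Fam135a (0.95) for Kdm4c.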

How the data were processed

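The deposited tables of the 20 time-course libraries hold expected counts and TPM for 24130 genes. Per the submitters' processing notes, the authors made them with RSEM in version 1.2.4 with mm10. Both reference samples had version 1.1.21 with mm9. The authors' series table holds 12897 genes in 22 columns of whole numbers that share 1 median (374), and was read as a normalized score, not counts. Strandedness is not given in the sources used here. Expected counts were rounded and tested in edgeR 4.0.16 (R 4.3.3) with TMM, filterByExpr and robust quasi-likelihood fits with day as a block, or 1 line per arm. P-values were adjusted over all genes tested. Single-day ratios used a prior count of 2 and a 2-fold threshold, with at least 5 CPM in 1 library. Intervals are 95% and cover counting error only where so named. Alternatives were RLE factors, no filter, DESeq2 1.42.0, limma 3.58.1 on log2(TPM + 1) and on the series table, removal of a lowess GC trend (span 0.3) from each library, and leaving out each day or library. Fits were checked on simulated data. In OSK minus GFP, 28% of genes changed 2-fold and 95% of those changed 4-fold were recovered, against 9% and 71% in OvSvK minus OSK, 42% and 92% in OSK_minus_vc minus OSK, and 71% and 93% in OSK_minus_vc minus the other omissions. The members, lists and alternatives were chosen with earlier results of these data known. Named genes are all members in every comparison, by value or within a range, the other Jumonji-class proteins, and up to 3 members of each other list with the smallest p past the threshold. Kdm6b by library set was described after its values were seen. Some results on likeness of pattern are not reported here. Coordinates are of mm10, from GENCODE M21. Figures were drawn with matplotlib.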

Additional observations from a re-analysis of the deposited data

How the results depend on the processing

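Calls of single members were gained or lost with the GC trend, the choice of count or series table, and single libraries, and leaving out single libraries turned the direction of no member that was called. Members called in OvSvK minus OSK numbered 1 with no filter on low counts and 1 by DESeq2, against 0. Per day in OSK, where 4 were called, the count was 2 with no filter, 7 by DESeq2, 2 on log2(TPM + 1), 1 with the GC trend removed, 1 in limma on the series table and 1 without OSK day 0 and GFP day 1. Per day in GFP it was 0 under each of these except DESeq2, against 1, and per day in OvSvK 1 in the series table, against 0. OSK_minus_vc minus OSK gave 1 with no filter and 1 by DESeq2, against 0, and OSK_minus_bFGF minus OSK 1 and 3, against 0. OSK_minus_GSK3i minus OSK gave 1 on log2(TPM + 1), 0 with the GC trend removed and 0 in the series table, against 3. OSK_minus_vc minus the other omissions gave 2, 0 and 0 under the same settings, against 4.

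Leaving out 1 day or library gave 1 to 5 members in OSK minus GFP, 0 to 3 in OvSvK minus OSK, 1 to 5 per day in OSK, 0 to 1 per day in GFP, 0 to 1 in OSK_minus_vc minus OSK, 0 to 3 in OSK_minus_bFGF minus OSK, 0 to 4 in OSK_minus_GSK3i minus OSK and 1 to 4 in OSK_minus_vc minus the other omissions. Where an arm was left with 1 sample, that sample was assumed to vary like the other groups.

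Signs turned in the series table for Kdm4c (-0.13) and Kdm5a (-0.25) in OvSvK minus OSK, for Kdm4c (0.22) and Kdm5a (0.26) in OSK_minus_GSK3i minus OSK, and for Kdm4c (-0.086) and Kdm5a (-0.092) in OSK_minus_vc minus the other omissions. The change per day of Kdm4b in OSK turned to 0.021 with the GC trend removed and 0.028 in the series table. The cause was not tested. The series table fit, the removal of OSK day 0 with GFP day 1 and the likeness without OSK day 0 were chosen after seeing the data. Arms were paired by day in the fits that compare arms. No paired analysis was possible by replicate number because every arm and day has 1 sample. With 1 library per arm and day, differences near 2-fold were often not detectable.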
